A study of Homo sapiens with 15 samples.

Results

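A673 Ewing sarcoma cells depleted of their endogenous EWS/FLI by knockdown were given back a wild-type copy. The libraries of these rescued cells (WT-EF) were set against those of depleted cells that received no copy (iEF). The comparison takes 6 of the 15 libraries of the series, 3 of WT-EF and 3 of iEF, chosen by their labels. All 6 came from A673, an established Ewing sarcoma line, infected on day 1 with a retrovirus carrying an shRNA against EWS/FLI. On day 5 the iEF cells received the empty vector and the WT-EF cells the same vector with a FLAG-tagged wild-type EWS/FLI cDNA. Both groups were held in 2 µg/mL puromycin and 400 µg/mL hygromycin B until day 16. The 3 iLuc libraries, from cells with an shRNA against luciferase and the empty vector, give the level in cells never depleted of EWS/FLI and are used here only as that reference. The shRNA targets the 3′ untranslated region of EWS/FLI, and the cDNA is driven by the retroviral vector rather than by the fusion's own promoter. The model is 1 cell line grown as drug-selected bulk populations. The labels number the replicates, and the study's scheme shows knockdown, rescue and selection for a single replicate at a time, so p-values measure the spread between such replicates of 1 cell line. The 6 libraries held 30347437 to 41859880 counts each.

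EWS/FLI is the fusion oncoprotein that drives most Ewing sarcomas. It joins the low-complexity amino-terminal domain of EWSR1, which recruits transcriptional coactivators, to the DNA-binding domain of the ETS factor FLI1. ETS factors recognise a GGAA core, and EWS/FLI also occupies long runs of that core, called GGAA microsatellites, near genes such as NR0B1, GSTM4 and FCGRT. It is equally known for turning genes down, among them the receptor TGFBR2, the growth factor binding protein IGFBP3 and the crosslinking enzyme LOX, and its loss moves Ewing cells toward a flat, matrix-producing, mesenchymal state.

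Because such repeats are central to how the fusion works, the reference sequence of a few of them is shown before the values. These are the longest uninterrupted GGAA runs within 5 kb of the start of 8 genes described here, read from GRCh37 with 10 bases on either side, 5′ to 3′ on the strand that reads GGAA. Capitals mark the uninterrupted run. The repeat length of A673 itself was not measured, and microsatellites vary in length between genomes.
CAV1: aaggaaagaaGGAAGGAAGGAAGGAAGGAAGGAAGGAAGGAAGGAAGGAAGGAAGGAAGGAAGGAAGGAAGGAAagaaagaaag
APELA: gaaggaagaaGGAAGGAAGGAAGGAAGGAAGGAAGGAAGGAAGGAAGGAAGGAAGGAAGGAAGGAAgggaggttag
CCK: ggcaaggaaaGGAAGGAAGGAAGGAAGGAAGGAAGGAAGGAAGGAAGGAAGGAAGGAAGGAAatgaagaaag
FCGRT: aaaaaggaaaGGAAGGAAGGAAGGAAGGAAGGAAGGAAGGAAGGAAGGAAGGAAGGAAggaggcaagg
CACNB2: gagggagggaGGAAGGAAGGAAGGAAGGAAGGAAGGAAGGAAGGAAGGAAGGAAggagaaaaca
NR0B1: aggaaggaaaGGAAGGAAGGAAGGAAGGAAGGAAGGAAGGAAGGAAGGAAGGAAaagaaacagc
DPF1: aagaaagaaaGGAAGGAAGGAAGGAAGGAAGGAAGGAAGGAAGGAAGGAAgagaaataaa
GSTM4: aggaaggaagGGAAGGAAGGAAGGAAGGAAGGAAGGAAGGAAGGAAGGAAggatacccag

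The NR0B1 run held 11 copies at chrX:30328875-30328918 on the minus strand, 1390 bases upstream of the gene. The GSTM4 run held 10 copies at chr1:110196891-110196930 on the plus strand, 1810 bases upstream, and the FCGRT run held 12 copies at chr19:50014764-50014811 on the plus strand, 4715 bases downstream of the start within an intron of FCGRT. The run near CCK lay closest to a start, 678 bases upstream at chr3:42308329-42308380 on the minus strand, with 13 copies. CAV1 had the longest run of the 8, 16 copies at chr7:116163141-116163204 on the plus strand, 1875 bases upstream. The APELA run of 14 copies lay at chr4:165794498-165794553 on the plus strand, 3804 bases upstream, and the CACNB2 run of 11 copies at chr10:18426017-18426060 on the minus strand, 3314 bases upstream. DPF1, shown as a gene with such a run that was lower in WT-EF, had 10 copies at chr19:38717635-38717674 on the minus strand, within an intron and 2699 bases downstream of its start. None of the 8 runs overlapped an exon.

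Across all expressed genes, WT-EF turned down more genes than it turned up. Among the 28793 genes with a mean of 1 count or more over the libraries, 8602 (29.9%) differed between WT-EF and iEF at an adjusted p under 0.05 in edgeR's quasi-likelihood test. WT-EF was higher for 3704 genes (12.9%) and lower for 4898 (17.0%). With a change of more than 2-fold also required, 1840 genes (6.39%) were higher and 2497 (8.67%) lower. The count of genes higher in WT-EF rested in part on single replicate numbers, since it was 2426 without replicate 1 (that number left out of every group) and 2180 without replicate 2. The median log2 fold change over all genes tested was -0.01, a value that TMM scaling holds near 0, so changes are relative to the bulk of genes.

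The balance of up and down depended on the size of the fitted change. Past 4-fold the calls were nearly even, at 1044 higher and 1112 lower. Past 16-fold 333 genes were higher and 174 lower, and past 32-fold 141 were higher and 59 lower. Many of the steepest increases started from nothing measurable: 496 of the genes called higher had at most 3 counts in every iEF library, and 330 of those called lower had at most 3 counts in every WT-EF library. The fitted fold change of such genes depends on a small constant added to the counts, so their size is given below only as a bound. The numbers of genes past each fold above include them and were not made without them.

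The lower genes carried far more of the counts. Together they made up 483167, 434858 and 488914 CPM (counts scaled to a common library size with TMM factors) in iEF replicates 1, 2 and 3 and 268877, 252903 and 216628 CPM in WT-EF. The higher genes together moved from 116745, 117392 and 117826 CPM in iEF to 169506, 192260 and 199351 CPM in WT-EF. The groups did not overlap in either sum, as the choice of these genes by their calls favours. The TMM factors were 0.894 to 0.977 in iEF and 1.05 to 1.11 in WT-EF. Scaling by them raises every iEF sum and lowers every WT-EF sum. The fall of the lower genes is therefore larger, and the gain of the higher genes smaller, than in unscaled counts. Gene by gene, the groups did not overlap for 39.2% of all genes, 91.04% of those higher and 95.18% of those lower. Among the 7198 genes highest in mean CPM, 32.87% were called lower and 19.3% higher, whereas among the 7199 lowest 2.32% were lower and 3.098% higher, with fewer counts to test. Protein-coding genes were called more often than the background, 17.7% higher and 25.38% lower of 16089, and long noncoding RNAs less often, 8.864% higher and 8.916% lower of 5776. For the lists of protein-coding genes below, the protein-coding shares are the nearer background.

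**Figure D1:**
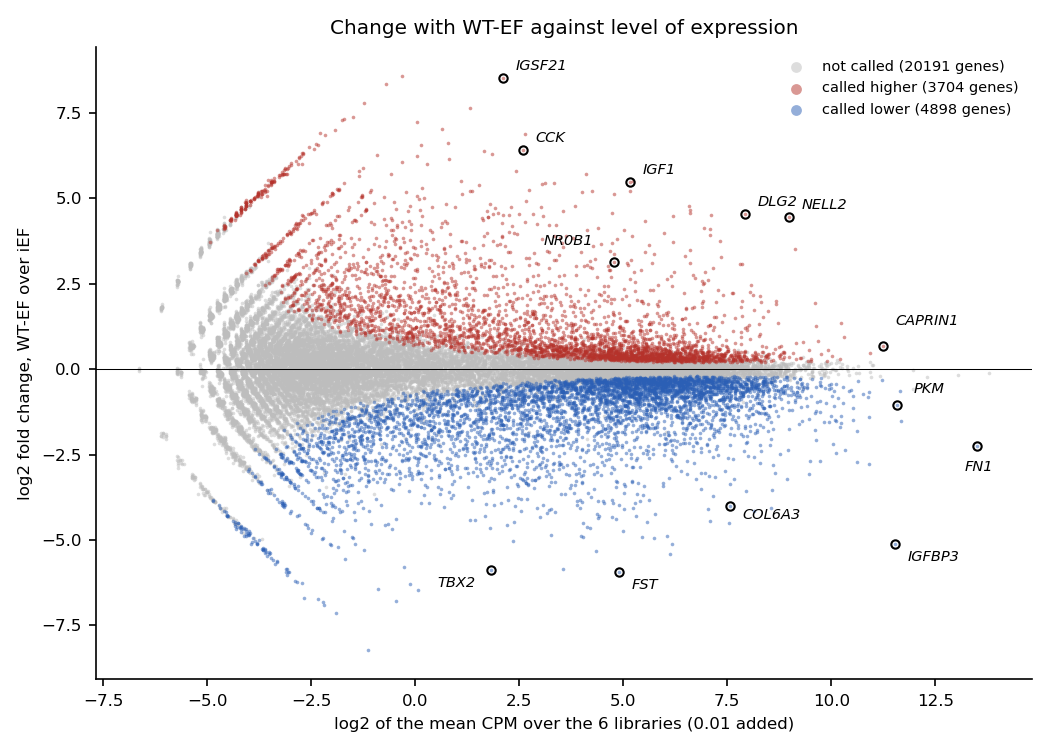
Each point is 1 of the 28793 genes tested, with the log2 of its mean CPM over the 6 libraries on the x axis and the fitted log2 fold change of WT-EF over iEF on the y axis. The 3704 genes called higher are red, the 4898 called lower blue and the rest grey, and FN1 and IGFBP3 stand at the right end among the genes called lower.

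The FLI1 locus was read first, since its reads can come from the endogenous fusion and from the cDNA. FLI1 (chr11:128556430-128683162, GRCh37) stood at 48.0, 47.8 and 52.5 CPM in iLuc and at 12.9, 15.5 and 15.3 CPM in iEF replicates 1, 2 and 3. In WT-EF it stood at 16.0, 18.0 and 18.7 CPM. Every WT-EF library lay above every iEF library and far under every iLuc library. WT-EF and iEF likewise did not overlap for 39.2% of all genes. The fitted change from iEF was small and missed the threshold (log2 fold change 0.27, SE 0.101, adjusted p = 0.0538). It passed under 6 of the alternatives, among them DESeq2, the fit without WT-EF replicate 3 and that without iEF replicate 2. Counts per gene do not tell the cDNA from the endogenous message, and which of the counted exons the cDNA holds is not known here, so this difference does not measure how much of the message was given back. By western blot, the study shows the endogenous protein depleted and the tagged constructs present after rescue. It also measured the EWS/FLI message by qRT-PCR.

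Markers of the labelled cell type were then read. Among them NR0B1 and NKX2-2 are genes that the fusion activates. Their rise with the rescue cannot check the cell line, which was the same in both groups. All 5 tested markers of Ewing sarcoma (NKX2-2, NR0B1, STEAP1, XG and NPY1R) were called higher in WT-EF, with a median log2 fold change of 2.90. CD99 held too few counts to be tested, for a reason not examined, so its expression cannot be judged here. XG, the blood group protein encoded beside CD99, moved from 1.24, 2.09 and 0.640 CPM to 11.8, 12.3 and 11.6 CPM (log2 fold change 3.26, SE 0.337, adjusted p = 4.77e-06). Of 13 markers of blood, epithelial, liver and endothelial cells found in the table, 8 were tested. EPCAM was called higher and APOA1, CD14 and VWF lower, and these 4 are named because of their calls. EPCAM kept its call only without WT-EF replicate 3 among the alternatives that left libraries out. The 5 not tested averaged under 1 count per library, and HBB had 0 counts. The summed level of the list was 7.54, 6.81 and 11.1 CPM in iEF and 1.85, 1.80 and 1.68 CPM in WT-EF. APOA1 alone made up 5.54, 4.22 and 8.55 CPM of the iEF and 0.582, 0.449 and 0.133 CPM of the WT-EF sums. In bulk RNA, fewer cells of a type and less RNA per cell cannot be told apart, and the part of such cells in the results was not tested.

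The genes best known as switched on by the fusion were switched on by the rescue. Of 28 tested genes from a list of direct activated targets, 23 were called higher and 0 lower, against 12.9% and 17.0% of all genes. Among protein-coding genes alone these shares were 17.7% and 25.38%. The 0 lower became 1 without replicate 1, WT-EF replicate 1, with no filter on low counts or with the 6 libraries alone. The median log2 fold change of the list was 1.71, with medians of 1.63, 1.68 and 1.96 in replicate pairs 1, 2 and 3. The list was compiled from published targets of this fusion, several of them defined in A673, so its direction is not independent of earlier knockdown work.

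NR0B1, an orphan nuclear receptor needed for Ewing cell transformation, stood at 3.94, 8.67 and 4.51 CPM in iEF. It stood at 42.2, 46.1 and 59.4 CPM in WT-EF (log2 fold change 3.13, SE 0.381, adjusted p = 2.06e-05), close to the 54.0, 61.2 and 49.8 CPM of iLuc. GSTM4, a glutathione transferase, moved from 11.5, 14.7 and 10.2 CPM to 40.7, 44.8 and 66.5 CPM (log2 fold change 2.06, SE 0.218, adjusted p = 6.08e-06). For both genes the lowest WT-EF library lay well above the highest iEF library, and the groups did not overlap for 91.04% of genes called higher. FCGRT, the receptor that recycles IgG, moved from 6.67, 10.5 and 4.54 CPM to 58.4, 71.6 and 67.5 CPM (log2 fold change 3.21, SE 0.267, adjusted p = 7.36e-07). NKX2-2, a homeobox repressor used to diagnose Ewing sarcoma, was scarce throughout, with 0.946, 1.01 and 0.873 CPM in iEF and 2.21, 2.14 and 2.69 CPM in WT-EF (log2 fold change 1.32, SE 0.251, adjusted p = 9.58e-04). It reached less of its iLuc level, 4.31, 5.89 and 5.49 CPM, than NR0B1 did. CAV1, which encodes the caveolar coat protein caveolin 1 and carries the 16-copy run shown above, rose from 898, 829.7 and 866 CPM to 1873, 1783 and 1338 CPM (log2 fold change 0.95, SE 0.128, adjusted p = 5.46e-05). CCND1, the G1 cyclin and the most abundant gene of the list, was not called, at 2151, 1575 and 1705 CPM in iEF and 2085, 1929 and 2202 CPM in WT-EF (adjusted p = 0.245).

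The largest increases among genes averaging at least 50 counts came from genes that were silent or nearly so in iEF. IGSF21, a synaptic adhesion protein of the immunoglobulin superfamily (chr1:18434292-18704977), was read no more than 1 time per iEF library and stood at 4.38, 6.47 and 14.9 CPM in WT-EF, at least 96.5-fold higher against a floor of 3 counts per library. Its iLuc libraries held only 0.183, 0.785 and 0.627 CPM, so the rescued level was above that of undepleted cells. OR4A16, an olfactory receptor, was at least 55.5-fold higher and SYCP1, a protein of the meiotic synaptonemal complex, at least 38.9-fold higher. APELA, a peptide hormone of early development, moved from 0.289, 1.42 and 0.291 CPM to 21.3, 32.8 and 46.5 CPM (log2 fold change 5.73, SE 0.565, adjusted p = 3.14e-06), level with the 31.0, 25.8 and 40.2 CPM of iLuc. The long noncoding RNAs LINC00463 (at least 34.4-fold) and LINC01192 (log2 fold change 6.29) were also among the 10. The T cell receptor segment TRAV3 (at least 69.1-fold), the immunoglobulin constant gene IGHG4 (log2 fold change 5.79) and the pseudogene RPL31P45 (at least 37.9-fold) share sequence with close copies, so the gene of origin of their reads is uncertain.

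By CPM gained, which is not scaled for gene length, other genes led. HOOK1, a dynein adaptor, moved from 58.1, 182 and 56.4 CPM to 681, 1164 and 1195 CPM. NELL2, a secreted ligand of neural cells, moved from 32.1, 83.2 and 27.8 CPM to 698, 1051 and 1133 CPM (log2 fold change 4.46, SE 0.325, adjusted p = 2.62e-07). For neither gene did the libraries overlap between the groups, as for 91.04% of genes called higher. The RNA-binding protein CAPRIN1 (log2 fold change 0.68) and the metalloprotease NRDC (1.93) were also among the 5 largest gains. HOOK1 and NRDC stayed under their iLuc means of 2063 and 2321 CPM. In all, 186 genes made up 50% of the CPM gained by the higher genes.

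**Figure D2:**
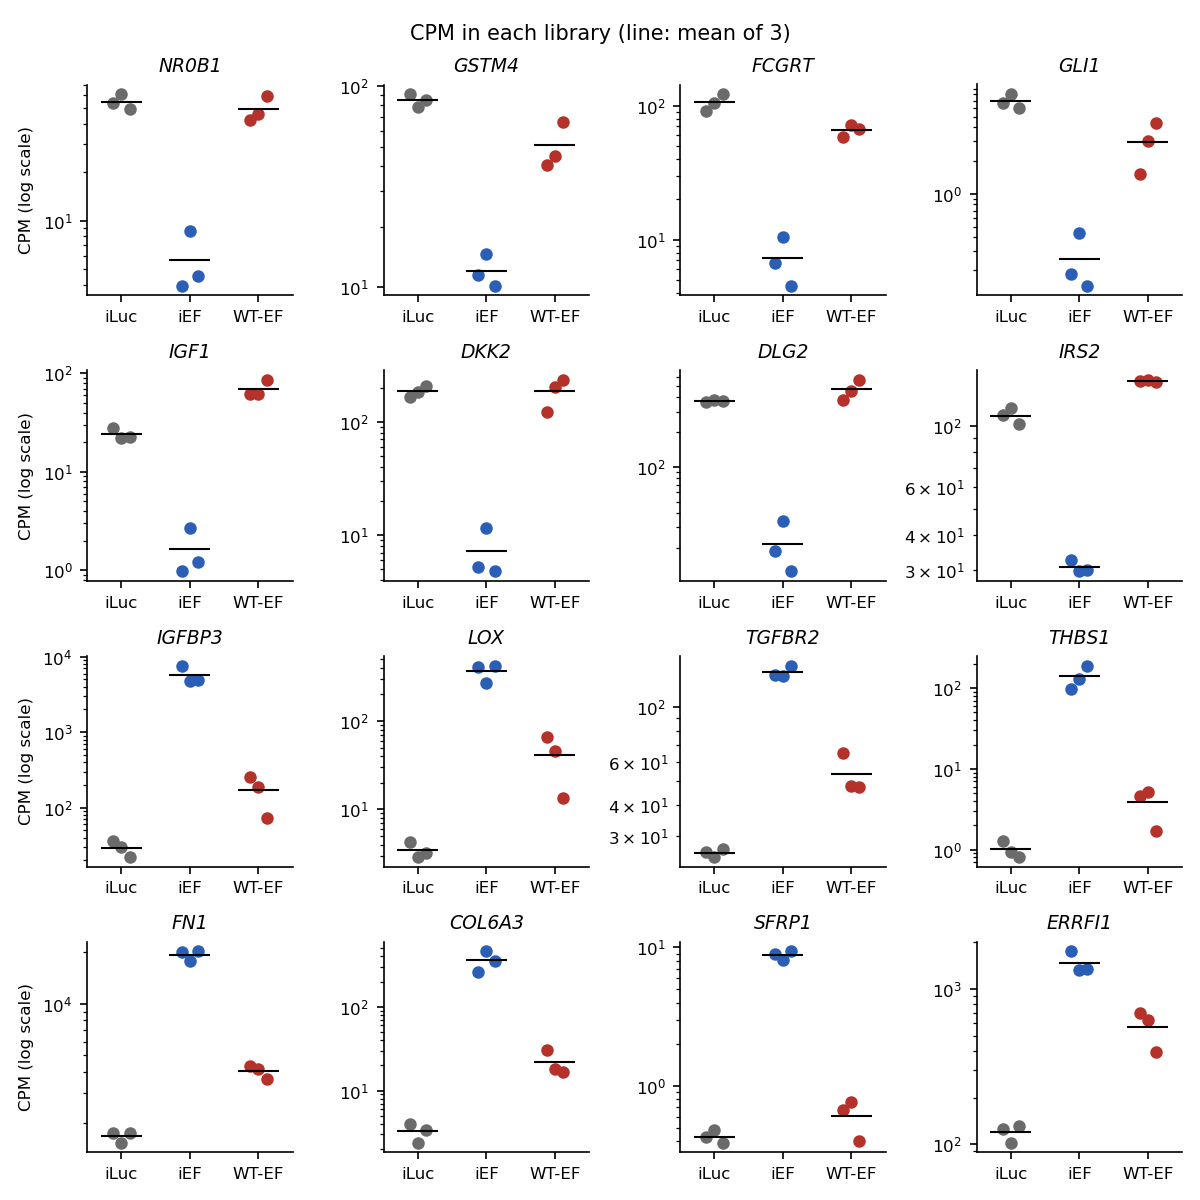
CPM on a log scale (y axis) for 16 genes in each iLuc, iEF and WT-EF library, with a line at the mean of 3. The first 8 genes were called higher in WT-EF and the last 8 lower, and for none of the 16 do the WT-EF and iEF points overlap. The groups did not overlap for 91.04% of genes called higher, 95.18% of those called lower and 39.2% of all genes.

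Developmental transcription factors moved in both directions. Of 29 tested HOX genes 9 were called higher (31.03%) and 7 lower (24.14%), against 17.7% and 25.38% of protein-coding genes. The higher genes included HOXD3, HOXD4 and HOXD8 to HOXD13, neighbours in the cluster on chromosome 2 that patterns the limb and posterior trunk. HOXD13, at the 5′ end of the cluster, moved from 17.4, 18.8 and 16.9 CPM to 37.9, 39.2 and 48.7 CPM (log2 fold change 1.24, SE 0.122, adjusted p = 3.13e-06), and HOXD8 from 25.2, 27.8 and 18.9 CPM to 49.3, 52.1 and 48.8 CPM (log2 fold change 1.08, SE 0.122, adjusted p = 1.12e-05). HOXD1 alone of the 9 HOXD genes was not called, at 0.318 and 0.206 mean CPM. HOXD4 and HOXD12 were scarce, under 1 mean CPM in both groups, and lost their call when replicate 3 was left out. Genes of the HOXB cluster were among the lower ones, HOXB8 from 8.62, 6.17 and 4.89 CPM to 1.75, 1.48 and 1.17 CPM (log2 fold change -2.15, SE 0.173, adjusted p = 5.76e-07) and HOXB2 with a log2 fold change of -1.15. The 7 lower HOX genes became 4 without replicate 1, replicate 2, WT-EF replicate 2 or with the 6 libraries alone.

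Of 17 SOX factors 4 were called higher, SOX1, SOX2 and SOX4 among them, and 3, SOX5, SOX9 and SOX13, lower. That is 23.53% and 17.65%, against 17.7% and 25.38% of protein-coding genes. SOX2, a factor of stem and neural progenitor cells, moved from 50.2, 63.6 and 45.2 CPM to 123, 106 and 136 CPM (log2 fold change 1.17, SE 0.176, adjusted p = 1.30e-04). SOX9, the master factor of cartilage, moved from 80.5, 81.7 and 85.1 CPM to 25.3, 24.7 and 27.2 CPM (log2 fold change -1.68, SE 0.124, adjusted p = 2.90e-07). Of 33 homeobox genes of the NKX, PAX, LHX, DLX and related families 9 were higher (27.27%) and 8 lower (24.24%). PAX7, a muscle and neural crest progenitor factor, had a log2 fold change of 2.15 (adjusted p = 2.02e-04) and DLX5, a factor of bone and forebrain, of 1.93. TBX2, a T-box repressor, nearly vanished, from 4.89, 3.95 and 12.1 CPM to 0.0831, 0.159 and 0.0799 CPM (log2 fold change -5.88, SE 0.386, adjusted p = 1.27e-07).

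Regulators of the mesenchymal and neural crest state were mostly turned down. Of 27 tested, 17 (62.96%) were called lower and 3 (11.11%) higher, against 25.38% and 17.7% of protein-coding genes. The median log2 fold change was -1.15. PRRX1, a homeobox factor of mesenchymal cells, stood at 241, 234 and 189 CPM in iEF and at 35.3, 23.6 and 23.9 CPM in WT-EF (log2 fold change -3.04, SE 0.208, adjusted p = 1.61e-07). ZEB1, a repressor of epithelial genes, moved from 66.8, 95.2 and 59.4 CPM to 10.6, 10.2 and 9.80 CPM (log2 fold change -2.85, SE 0.190, adjusted p = 1.46e-07), while its relative ZEB2 was higher, from 278, 242 and 276 CPM to 355, 328 and 443 CPM (log2 fold change 0.50, SE 0.0886, adjusted p = 5.87e-04). The groups overlapped for none of these 3 genes, and did not overlap for 95.18% of genes called lower and 91.04% of those called higher. The list ended above its iLuc level for 15 of 27 genes and under it for 2, where 10.7% and 9.03% of all genes were called higher and lower than iLuc. That second comparison uses the same WT-EF libraries.

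The other ETS factors, which share the GGAA core, also changed. Of 25 tested 12 (48.0%) were lower and 5 (20.0%) higher, against 25.38% and 17.7% of protein-coding genes. The 5 higher ones became 3 without replicate 1, WT-EF replicate 2, iEF replicate 3 or with the 6 libraries alone, and 2 without replicate 2. ETS1 moved from 201, 158 and 214 CPM to 96.9, 48.3 and 28.5 CPM (log2 fold change -1.73, SE 0.355, adjusted p = 0.0017), still far above the 6.39, 2.38 and 4.03 CPM of iLuc. ETS2 moved the opposite way, from 23.0, 22.6 and 28.5 CPM to 82.9, 80.9 and 102 CPM (log2 fold change 1.84, SE 0.149, adjusted p = 5.76e-07). ELF4 and ETV5, an ERK-responsive factor, were lower, with log2 fold changes of -1.37 and -0.94.

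Insulin-like growth factor signalling changed at ligand, adaptor and binding proteins. IGF1, the ligand, stood at 0.972, 2.70 and 1.22 CPM in iEF and at 61.6, 61.1 and 86.0 CPM in WT-EF (log2 fold change 5.47, SE 0.400, adjusted p = 2.66e-07), above the 28.0, 21.9 and 22.4 CPM of iLuc. IRS2, the adaptor that couples the receptor to PI3 kinase, moved from 32.6, 29.6 and 29.9 CPM to 145, 146 and 144 CPM (log2 fold change 2.24, SE 0.0919, adjusted p = 3.72e-09). PAPPA, a protease that frees IGF by cleaving its binding proteins, was higher as well, with a log2 fold change of 1.58. IGFBP3, the main carrier of IGF in serum, stood at 7644, 4804 and 4874 CPM in iEF and at 257, 186 and 73.6 CPM in WT-EF (log2 fold change -5.13, SE 0.290, adjusted p = 4.34e-08). The binding proteins IGFBP1 (-5.85) and IGFBP7 (-3.99) were lower too. In the whole list of 16 tested genes, 4 were higher (25.0%) and 10 lower (62.5%), against 17.7% and 25.38% of protein-coding genes.

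Transforming growth factor beta and bone morphogenetic protein genes were largely turned down, where 25.38% of protein-coding genes were lower and 17.7% higher. For TGF-beta and activin ligands, receptors and inhibitors the count was 16 lower and 4 higher of 28, and for BMP ligands and antagonists 13 lower and 6 higher of 22. TGFBR2, the receptor that binds TGF-beta, moved from 136, 134 and 148 CPM to 65.4, 47.9 and 47.2 CPM (log2 fold change -1.37, SE 0.157, adjusted p = 1.20e-05). FST, the activin antagonist follistatin, showed the largest decrease of any gene averaging at least 50 counts, from 88.9, 31.1 and 55.4 CPM to 1.11, 1.35 and 0.479 CPM (log2 fold change -5.95, SE 0.502, adjusted p = 8.20e-07). LTBP1, which stores latent TGF-beta in the matrix, was lower (-3.84), as was GREM1, a BMP antagonist (-3.29). Among receptors, the activin receptors ACVR1B (0.81), ACVR2A (0.77) and ACVR2B (0.88) were higher. GDF6, a BMP ligand of joints and eye, moved from 27.8, 51.2 and 25.2 CPM to 169, 197 and 238 CPM (log2 fold change 2.59, SE 0.248, adjusted p = 2.38e-06).

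Negative feedback genes of the ERK pathway fell together. Of 11 tested 9 were lower and 0 higher, against 25.38% and 17.7% of protein-coding genes. SPRY2, a sprouty inhibitor of receptor signalling, moved from 181, 133 and 150.3 CPM to 45.6, 41.0 and 20.0 CPM (log2 fold change -2.16, SE 0.195, adjusted p = 1.47e-06). ERRFI1, which blocks the EGF receptor kinase, moved from 1746, 1333 and 1340.4 CPM to 699, 630.1 and 389.9 CPM (log2 fold change -1.37, SE 0.150, adjusted p = 7.87e-06). DUSP4, an ERK phosphatase, had a log2 fold change of -1.62. All 11 stood above their iLuc level after rescue by the test of WT-EF against iLuc.

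Hedgehog pathway genes moved in both directions, with 3 higher and 7 lower of 18, against 17.7% and 25.38% of protein-coding genes. GLI1, the transcription factor at its end, stood at 0.184, 0.438 and 0.145 CPM in iEF and 1.5, 2.99 and 4.37 CPM in WT-EF (log2 fold change 3.54, SE 0.468, adjusted p = 4.39e-05), and PTCH1, the receptor and a target of GLI1, rose from 4.15, 4.38 and 4.13 CPM to 7.73, 8.46 and 7.99 CPM (log2 fold change 0.93, SE 0.125, adjusted p = 4.91e-05). Among coreceptors GAS1 (0.77) was higher, a call lost without replicate 1, and BOC (-2.21) lower. The secreted SCUBE3 (-3.63) was also lower. Secreted Wnt antagonists divided as well. DKK2 moved from 5.23, 11.7 and 4.80 CPM to 122, 201 and 234 CPM (log2 fold change 4.76, SE 0.347, adjusted p = 2.61e-07), whereas its relative DKK1 moved from 109, 90.8 and 111 CPM to 38.4, 32.0 and 6.39 CPM (log2 fold change -2.20, SE 0.374, adjusted p = 3.85e-04) and DKK3 and SFRP1 had log2 fold changes of -3.71 and -3.84. Of 14 antagonists 2 were higher and 5 lower, the 5 becoming 3 without replicate 1, replicate 3 or with a mean of at least 10 counts. In the Notch pathway 5 of 20 genes were higher and 4 lower, with the ligands JAG2 (2.65) and JAG1 (-1.19) on opposite sides. The 5 became 3 without replicate 1, replicate 2 or with no replicate block, and 2 without iEF replicate 1.

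Some neuronal genes rose, where 17.7% of protein-coding genes were higher and 25.38% lower. Of 49 tested genes of the synaptic vesicle and synaptic adhesion 18 were higher and 7 lower, with a median log2 fold change of 0.36. Their summed level went from 541, 608 and 529.5 CPM in iEF to 1054, 1218 and 1385 CPM in WT-EF. DLG2, a postsynaptic scaffold, contributed most and moved from 18.7, 33.7 and 12.4 CPM to 382, 453 and 567 CPM (log2 fold change 4.53, SE 0.296, adjusted p = 1.26e-07). The vesicle protein SV2B stood at 0.0788, 0.270 and 0.0872 CPM in iEF and at 5.18, 5.02 and 6.68 CPM in WT-EF (log2 fold change 5.38, SE 0.685, adjusted p = 3.13e-05). The adhesion protein LRRTM4 reached 3.77, 6.29 and 10.1 CPM, above the 0.459, 0.477 and 0.597 CPM of iLuc. Other members fell, among them NRXN3 (-1.72), SYT7 (-1.36) and UNC13A (-1.13).

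Ion channel and receptor genes moved in both directions, where 12.9% of all genes and 17.7% of protein-coding genes were higher. The shares lower were 17.0% and 25.38%. Of 79 potassium channel genes 23 were higher and 14 lower, with 15 higher without replicate 1. KCNH5, a voltage-gated channel, moved from 0.315, 0.742 and 0.145 CPM to 15.7, 12.6 and 20.3 CPM (log2 fold change 5.41, SE 0.421, adjusted p = 4.50e-07), while the calcium-activated KCNMA1 moved from 129.9, 95.2 and 113 CPM to 15, 10 and 7.08 CPM (log2 fold change -3.42, SE 0.229, adjusted p = 1.46e-07). The calcium-activated channels KCNN1 and KCNN4 also took opposite directions, at 3.33 and -2.80. Of 33 voltage-gated sodium and calcium channel genes 10 were higher and 4 lower, led by CACNB2 (3.44), an auxiliary subunit with an 11-copy run shown above, and the T-type channels CACNA1H (3.09) and CACNA1G (2.73). GRIK2, a kainate receptor, rose from 15.6, 28.8 and 17.1 CPM to 145, 166 and 208 CPM (log2 fold change 3.11, SE 0.249, adjusted p = 5.47e-07) and led the ligand-gated receptors, of which 10 of 50 were higher, near the protein-coding share, and 5 lower. The 5 lower became 3 without replicate 1, replicate 2, WT-EF replicate 2 or iEF replicate 1, 2 without replicate 3, WT-EF replicate 3 or iEF replicate 3, and 8 with limma on the ComBat-adjusted counts.

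Among neuropeptides and their receptors 7 of 29 were higher and 4 lower, against 17.7% and 25.38% of protein-coding genes. CCK, the gut and brain peptide cholecystokinin, was almost absent from iEF, at 0.184, 0.202 and 0.0291 CPM, and reached 9.64, 11.9 and 13.9 CPM in WT-EF (log2 fold change 6.41, SE 0.709, adjusted p = 8.64e-06). UTS2, urotensin 2, moved from 0.920, 2.80 and 1.19 CPM to 48.9, 77.3 and 33.8 CPM (log2 fold change 5.12, SE 0.568, adjusted p = 8.97e-06). Neuropeptide Y and its receptor rose as a pair, NPY with a log2 fold change of 3.06 and NPY1R of 2.90. GRPR, the receptor of gastrin-releasing peptide, fell (log2 fold change -4.09, SE 0.259, adjusted p = 9.17e-08).

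Axon guidance and cell adhesion genes divided, as did protein-coding genes at large, 17.7% of them higher and 25.38% lower. Of 68 semaphorins, ephrins, slits, netrins and their receptors 15 were higher (22.06%) and 20 lower (29.41%), near those shares. Without replicate 2, 9 were higher. The receptors ROBO2 (2.74), EPHA5 (2.75) and UNC5A (2.54) rose, and the plexins PLXNA2 (-3.40) and PLXNA4 (-3.18) and the ligands NTN4 (-3.07) and SEMA3A (-1.41) fell. CDH12, a cadherin of brain, moved from 2.18, 3.88 and 1.10 CPM to 42.1, 32.4 and 43.7 CPM (log2 fold change 4.13, SE 0.435, adjusted p = 5.65e-06), and CDH2, the neural and mesenchymal N-cadherin, from 373, 339 and 403 CPM to 108, 91.4 and 85.2 CPM (log2 fold change -1.96, SE 0.143, adjusted p = 2.66e-07). Of 19 cadherins 6 were higher and 5 lower, the 5 becoming 3 without replicate 1, WT-EF replicate 1, iEF replicate 3, with DESeq2 size factors or with a mean of at least 10 counts. Of 63 protocadherins 16 were higher and 10 lower, with 9 without replicate 2 for the higher ones and 6 without replicate 1, replicate 3 or with the 6 libraries alone for the lower ones. PCDH7, the most abundant, moved from 172, 169.9 and 160.0 CPM to 599, 565 and 471 CPM (log2 fold change 1.70, SE 0.187, adjusted p = 8.58e-06). The clustered protocadherins share exons, so reads there may not be assigned to the gene they came from.

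Many extracellular matrix genes were lowered. Of 11 direct repressed targets all 11 were lower, of 44 collagens 23 were lower and 2 higher, and of 43 matrix glycoproteins and proteoglycans 30 were lower and 3 higher, against 17.0% and 12.9% of all genes. Among protein-coding genes alone these shares were 25.38% and 17.7%. The repressed list, like the activated one, came from published work on this fusion. By CPM, FN1, fibronectin, was the single most abundant gene of the comparison that changed and the one that lost the most. It stood at 20040.4, 17736 and 20260.3 CPM in iEF and at 4357, 4179 and 3638 CPM in WT-EF (log2 fold change -2.25, SE 0.105, adjusted p = 1.07e-08), against 1754, 1539 and 1751 CPM in iLuc. The collagen VI chains fell further, COL6A3 from 262, 459.8 and 351 CPM to 30.7, 18.3 and 16.8 CPM (log2 fold change -4.01, SE 0.300, adjusted p = 3.22e-07), with COL6A1 at -3.56 and COL6A2 at -3.53. Type I collagen fell through both chains, with log2 fold changes of -2.53 for COL1A1 and -2.06 for COL1A2. COL21A1 and COL25A1 rose, COL21A1 from 12, 24.2 and 14.2 CPM to 47.0, 91.0 and 110.3 CPM (log2 fold change 2.32, SE 0.231, adjusted p = 3.46e-06). COL25A1 lost its call without replicate 2.

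THBS1, the matrix protein thrombospondin 1, moved from 96.5, 131 and 190.1 CPM to 4.62, 5.15 and 1.70 CPM (log2 fold change -5.12, SE 0.370, adjusted p = 2.49e-07). SPP1, osteopontin, moved from 126, 177 and 102 CPM to 5.29, 5.58 and 0.746 CPM (log2 fold change -5.41, SE 0.378, adjusted p = 1.98e-07), and MGP, an inhibitor of calcification, had a log2 fold change of -4.06. In these 2 genes and THBS1 the WT-EF libraries held only a small part of the iEF level. Enzymes that modify and crosslink collagen were lower in 17 of 21 cases and higher in 0, against 25.38% and 17.7% of protein-coding genes. LOX, which crosslinks collagen and elastin, moved from 405, 266 and 422 CPM to 66.0, 45.5 and 13.3 CPM (log2 fold change -3.22, SE 0.349, adjusted p = 7.33e-06), and stayed above the 4.31, 2.89 and 3.19 CPM of iLuc. The lysyl hydroxylase PLOD2 (-1.82) and the transglutaminase TGM2 (-3.80) were also lower. The 0 higher became 1 without replicate 3 or WT-EF replicate 3.

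Receptors and anchors of the matrix were also lower, where 25.38% of protein-coding genes were lower and 17.7% higher. Of 37 integrin and laminin genes 24 were lower and 5 higher, and the 5 became 3 without replicate 1, iEF replicate 1 or iEF replicate 2, and 2 without replicate 2. ITGB1, the common beta subunit of matrix integrins, moved from 1681, 1567 and 1968 CPM to 590.0, 801 and 609.9 CPM (log2 fold change -1.38, SE 0.132, adjusted p = 2.54e-06). LAMA4, a laminin chain of vessels and muscle, moved from 257, 284 and 235 CPM to 15.3, 10.5 and 11.3 CPM (log2 fold change -4.44, SE 0.227, adjusted p = 2.36e-08). The integrin subunits ITGA8 (-4.55) and ITGA10 (-4.40) fell and ITGA7 (1.51), a laminin receptor of muscle, rose. Matrix proteases and their inhibitors were lower in 36 of 66 cases and higher in 4. The 4 became 1 without replicate 1 or replicate 2, and 2 without iEF replicate 1, iEF replicate 2, iEF replicate 3 or with no replicate block. PLAT, tissue plasminogen activator, moved from 718, 554 and 872 CPM to 49.5, 48.9 and 24.1 CPM (log2 fold change -4.06, SE 0.339, adjusted p = 7.44e-07). It was lower in all 3 replicate pairs, as were 99.12% of genes called lower.

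Actin and focal adhesion genes were lower in 28 of 35 cases and higher in 2, and targets of the YAP and TEAD coactivator complex, which responds to cell spreading, in 19 of 24 and 0. The protein-coding shares were 25.38% and 17.7%. The 2 higher actin genes became 1 without replicate 1, replicate 2, WT-EF replicate 1, WT-EF replicate 2 or iEF replicate 1. TPM1, a tropomyosin of stress fibres, moved from 455, 621 and 749.8 CPM to 164, 158 and 58.3 CPM (log2 fold change -2.21, SE 0.350, adjusted p = 2.17e-04), and MYH9, a nonmuscle myosin heavy chain, from 2021, 1752 and 2261 CPM to 1286, 943 and 573 CPM (log2 fold change -1.13, SE 0.189, adjusted p = 3.50e-04). NT5E, the surface nucleotidase CD73, moved from 3763, 2686 and 3605 CPM to 819.9, 539 and 204 CPM (log2 fold change -2.77, SE 0.300, adjusted p = 7.12e-06). Its level in iLuc was 51.4, 25.4 and 36.5 CPM, under every WT-EF library. AXL, a receptor kinase of motile cells, had a log2 fold change of -3.00. The summed level of the YAP and TEAD list was 15440.1, 10806 and 12802 CPM in iEF and 3219.6, 2462 and 1606 CPM in WT-EF, lowest in WT-EF replicate 3. IGFBP3 and NT5E made up most of the iEF sum. The 0 higher of this list became 1 without replicate 2, WT-EF replicate 2, iEF replicate 2, with DESeq2 size factors, with a mean of at least 10 counts, with the DESeq2 Wald test or with limma on the ComBat-adjusted counts.

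Caveolar genes moved in both directions, where 17.7% of protein-coding genes were higher and 25.38% lower. The coat proteins CAV1 and CAV2 (1.30) and the muscle cavin CAVIN4 (0.65) rose. The remaining changed members fell, among them CAVIN2 (-1.94), CAVIN3 (-2.38) and the membrane ATPase EHD2 (-2.21), for 3 higher and 5 lower of 9. CAV2 moved from 168, 143 and 142 CPM to 336, 371 and 410.5 CPM (log2 fold change 1.30, SE 0.0906, adjusted p = 1.97e-07), close to the 432, 416 and 464 CPM of iLuc. EHD2 moved from 51.3, 32.9 and 47.5 CPM to 15.2, 6.58 and 7.54 CPM (log2 fold change -2.21, SE 0.196, adjusted p = 1.23e-06). Neither gene's groups overlapped, as for 91.04% of genes called higher and 95.18% of those called lower.

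Lineage genes of bone and cartilage were lower in 10 of 20 cases and higher in 1, DLX5, against 25.38% and 17.7% of protein-coding genes. RUNX2, the bone master factor (-1.68), fell beside SOX5, SOX9, COL1A1 and SPP1. The 1 higher became 2 without replicate 3, WT-EF replicate 3 or iEF replicate 2, and 3 with no filter on low counts or with limma on the ComBat-adjusted counts.

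Innate immune genes were also lower, but here the replicate pairs disagreed most. The protein-coding shares were 25.38% lower and 17.7% higher. Of 45 tested interferon-stimulated genes 31 were lower and 0 higher. Their summed level was 2742, 4348 and 2308 CPM in iEF replicates 1, 2 and 3 and 1436, 1375 and 1769 CPM in WT-EF, and the median log2 difference was -1.27, -2.37 and -0.69 in the 3 pairs. iEF replicate 2 was highest. The count of 31 lower genes became 20 without replicate 1 or with no replicate block, 3 without replicate 2, 11 without WT-EF replicate 2, 16 without WT-EF replicate 3, 13 without iEF replicate 1, and 8 without iEF replicate 2. OAS2, a sensor of double-stranded RNA, stood at 11.1, 26.1 and 7.33 CPM in iEF and 1.08, 0.740 and 1.36 CPM in WT-EF (log2 fold change -4.33, SE 0.965, adjusted p = 0.00319) and lost its call without replicate 2, as did XAF1 and IFI27.

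Antigen presentation and cytokine genes followed, where 25.38% of protein-coding genes were lower and 17.7% higher. Of 18 genes of MHC class I presentation 14 were lower and 0 higher, 9 lower without replicate 2. HLA-B, a class I heavy chain whose reads can be shared with its close relatives, moved from 233, 312 and 401 CPM to 58.4, 33.1 and 62.4 CPM (log2 fold change -2.60, SE 0.440, adjusted p = 3.77e-04). B2M, the invariant light chain, was not called, at 1983, 2414 and 2111 CPM and 1757, 1970.4 and 1755 CPM (adjusted p = 0.377). Of 37 chemokines, cytokines and NF-kB targets 17 were lower and 0 higher, with 11 without replicate 2 for the lower ones and 1 without iEF replicate 2, with no filter on low counts, with a mean of at least 10 counts, with the 6 libraries alone or with the DESeq2 Wald test for the higher ones. CXCL8, a neutrophil chemokine, moved from 1234, 1003 and 1585 CPM to 196, 179 and 61.6 CPM (log2 fold change -3.06, SE 0.424, adjusted p = 6.61e-05), and CXCL12, a stromal chemokine, from 10.6, 7.69 and 11.5 CPM to 0.139, 0.687 and 0.0799 CPM (log2 fold change -5.04, SE 0.558, adjusted p = 8.83e-06). CD59, which shields cells from complement, was among the 5 largest losses by CPM, from 3096, 2323 and 2747 CPM to 570.1, 462 and 224 CPM (log2 fold change -2.73, SE 0.222, adjusted p = 6.17e-07). In the complement list 8 of 23 genes were lower and 1 higher, the 8 becoming 4 without replicate 2, and 5 with no replicate block and the 1 becoming 0 with limma on the ComBat-adjusted counts.

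**Figure D3:**
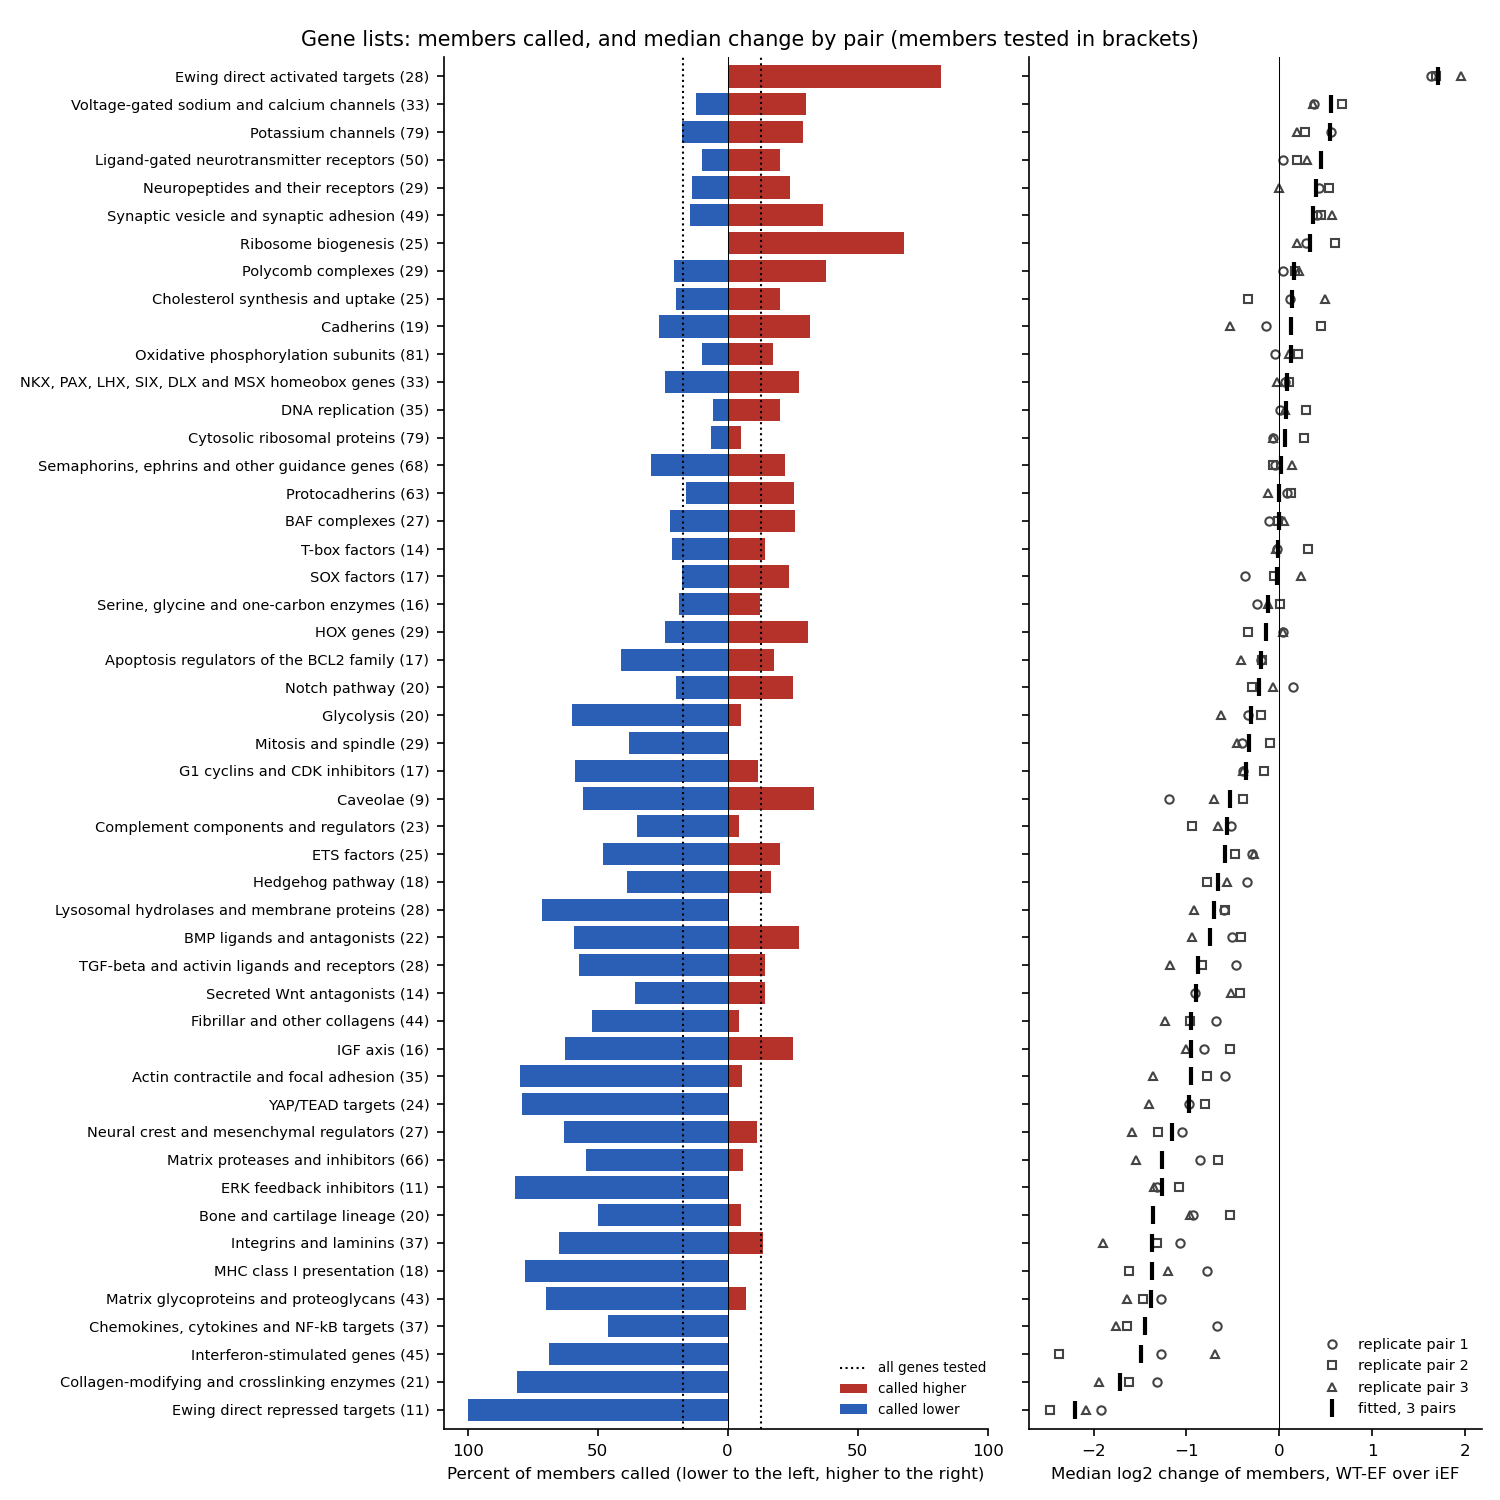
Left, the percent of each list's tested members called lower (blue, leftward) or higher (red, rightward), with dotted lines at the 17.0% and 12.9% of all genes. Among protein-coding genes alone, not drawn, these shares were 25.38% and 17.7%. Right, the median log2 change of each list's members, fitted over the 3 pairs (bar) and in each replicate pair (symbols). Direct activated targets stand at the top with 23 of 28 higher and direct repressed targets at the bottom with 11 of 11 lower, and the 3 pairs lie farthest apart for interferon-stimulated genes.

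Where edgeR called 0 members of a list in 1 direction, the members at an unadjusted p under 0.05 in that direction were 1 activated target lower, and higher 1 mitosis gene, 1 YAP and TEAD target, 1 chemokine or cytokine gene and 3 mitochondrially encoded transcripts. DESeq2 called 1 of the YAP and TEAD targets and 1 of the chemokine and cytokine genes higher. For the remaining lists both numbers were 0.

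Growth and proliferation genes changed by much less. The protein-coding shares were 17.7% higher and 25.38% lower. Of 25 tested genes of ribosome biogenesis 17 were higher and 0 lower, with a median log2 fold change of 0.33, and 11 were higher without replicate 1 and 6 without replicate 2. NOLC1, a nucleolar scaffold, moved from 236, 237 and 264 CPM to 361, 422 and 406 CPM (log2 fold change 0.69, SE 0.0937, adjusted p = 5.60e-05), and POLR1B, a subunit of the polymerase that makes ribosomal RNA, from 57.2, 63.1 and 64.7 CPM to 90.6, 118 and 116 CPM (log2 fold change 0.80, SE 0.0862, adjusted p = 6.79e-06). Neither gene's groups overlapped, as for 91.04% of genes called higher. Of 79 cytosolic ribosomal protein genes 4 were higher and 5 lower, counts that depended on the setting. The 4 became 0 without replicate 2, WT-EF replicate 2 or iEF replicate 3, 8 without WT-EF replicate 1, 2 without iEF replicate 2, 9 with DESeq2 size factors, 14 with a mean of at least 10 counts, 1 with the 6 libraries alone, 10 with the DESeq2 Wald test, and 11 with limma on the ComBat-adjusted counts. The 5 became 1 without replicate 1, WT-EF replicate 3, iEF replicate 1 or iEF replicate 3, 2 without replicate 3, WT-EF replicate 1, with DESeq2 size factors, with the 6 libraries alone, with the DESeq2 Wald test or with limma on the ComBat-adjusted counts, and 3 with no replicate block or with a mean of at least 10 counts. RPL30, the internal control of the study's qRT-PCR, stood at 316, 262 and 277 CPM in iEF and 238, 221 and 175 CPM in WT-EF (log2 fold change -0.43, SE 0.134, adjusted p = 0.0237). Of the alternatives that left libraries out, RPL30 passed only without replicate 3 and without WT-EF replicate 2.

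Cell cycle lists differed in direction, with more lower than higher calls for mitosis and G1 genes and the reverse for DNA replication. The protein-coding shares were 17.7% higher and 25.38% lower. Of 35 DNA replication genes 7 were higher and 2 lower. The 7 became 0 without replicate 2, 13 without WT-EF replicate 1 or with limma on the ComBat-adjusted counts, 4 without WT-EF replicate 2, 3 without iEF replicate 2, and 14 with a mean of at least 10 counts. The 2 became 1 without replicate 1 or replicate 3. Of 29 mitosis and spindle genes 11 were lower and 0 higher. The 11 became 5 without replicate 1, 7 without replicate 2, WT-EF replicate 3 or with limma on the ComBat-adjusted counts, 6 without replicate 3 or with the 6 libraries alone, and 4 without WT-EF replicate 1 or iEF replicate 3, and the 0 higher became 1 without WT-EF replicate 1, with a mean of at least 10 counts or with limma on the ComBat-adjusted counts. ANLN, a scaffold of the cleavage furrow, moved from 769.9, 544 and 820.1 CPM to 482, 401 and 384 CPM (log2 fold change -0.76, SE 0.134, adjusted p = 5.30e-04). Of 17 G1 cyclins and CDK inhibitors 10 were lower and 2 higher, with 6 lower without replicate 1 or 3. CCND2, a D-type cyclin, rose from 0.289, 0.405 and 0.494 CPM to 3.41, 5.13 and 3.97 CPM (log2 fold change 3.41, SE 0.436, adjusted p = 3.23e-05), and its partner kinase CDK6 fell from 144, 168 and 167 CPM to 69.3, 71.3 and 48.2 CPM (log2 fold change -1.34, SE 0.198, adjusted p = 1.20e-04).

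Among metabolic lists, glycolysis and the lysosome held the largest shares of lower genes. The protein-coding shares were 17.7% higher and 25.38% lower. Of 20 glycolysis genes 12 were lower and 1, PFKM, higher. The 1 became 2 without replicate 1, replicate 2, WT-EF replicate 2, iEF replicate 1, iEF replicate 2, with DESeq2 size factors, with no filter on low counts or with limma on the ComBat-adjusted counts, 3 without WT-EF replicate 1, and 4 with a mean of at least 10 counts or with the DESeq2 Wald test. PKM, pyruvate kinase, moved from 4279.6, 3779 and 4457 CPM to 2237, 2091 and 1667 CPM (log2 fold change -1.05, SE 0.119, adjusted p = 1.03e-05), and LDHA, lactate dehydrogenase, from 1565, 1397 and 1443 CPM to 879.5, 637 and 558 CPM (log2 fold change -1.09, SE 0.137, adjusted p = 2.65e-05). The WT-EF levels of both lay near those of iLuc, whose means were 1880.3 and 597 CPM. Of 28 lysosomal genes 20 were lower and 0 higher, with CTSL (-2.24) and CTSB (-1.59), lysosomal proteases, prominent. Oxidative phosphorylation subunits held 14 higher and 8 lower of 81. The 14 became 2 without replicate 2, 9 without replicate 3 or WT-EF replicate 2, 22 without WT-EF replicate 1 or with a mean of at least 10 counts, and 7 without iEF replicate 3 or with the 6 libraries alone. The 8 became 2 without replicate 1 or WT-EF replicate 1, 5 without replicate 2, with no replicate block, with no filter on low counts, with a mean of at least 10 counts or with the DESeq2 Wald test, 1 without replicate 3 or with the 6 libraries alone, 3 without WT-EF replicate 3 or iEF replicate 1, and 4 without iEF replicate 2, iEF replicate 3, with DESeq2 size factors or with limma on the ComBat-adjusted counts. Serine and one-carbon enzymes held 2 higher, PHGDH (0.67) and PSAT1 (0.91) of serine synthesis, and 3 lower of 16, GLDC (-2.90) among them. PHGDH lost its call with no replicate block. Cholesterol genes held 5 higher and 5 lower of 25. The 5 higher became 0 without replicate 1, 9 without replicate 2, 2 without replicate 3, WT-EF replicate 3 or with no replicate block, 1 without iEF replicate 1 or iEF replicate 3, 11 without iEF replicate 2, and 3 with the 6 libraries alone. The 5 lower became 3 without replicate 1, WT-EF replicate 1, with a mean of at least 10 counts or with the 6 libraries alone, 1 without replicate 2, and 2 without WT-EF replicate 2 or iEF replicate 2. After rescue, 21 of these 25 genes stood under their iLuc level by the test, with a median log2 difference from iLuc of -0.88, and 0 above it.

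Chromatin regulators and survival genes moved in both directions, where 17.7% of protein-coding genes were higher and 25.38% lower. Of 29 polycomb genes 11 were higher (37.93%) and 6 lower (20.69%), with 7 higher without replicate 1 and 4 without replicate 2. The polycomb accessory proteins MTF2 (0.91) and JARID2 (0.85) rose and PHF19 (-1.31) fell. Of 27 BAF remodelling genes 7 were higher (25.93%) and 6 lower (22.22%). The 7 became 4 without replicate 2 and the 6 became 2 without replicate 1 or with the 6 libraries alone. SMARCC1, a core BAF scaffold, moved from 146, 149 and 147 CPM to 288, 352 and 416 CPM (log2 fold change 1.24, SE 0.0950, adjusted p = 3.99e-07). DPF1, a neuronal BAF subunit and the lower gene among the repeats shown above, moved from 7.86, 4.79 and 7.50 CPM to 3.07, 2.46 and 2.82 CPM (log2 fold change -1.27, SE 0.196, adjusted p = 1.73e-04). In the BCL2 family 3 of 17 were higher and 7 lower, the 7 becoming 4 without replicate 1 or iEF replicate 2, and 3 without replicate 2. BCL2, which blocks apoptosis, moved from 28.3, 28.3 and 26.2 CPM to 59.5, 83.3 and 67.2 CPM (log2 fold change 1.33, SE 0.157, adjusted p = 1.51e-05), and its relative BCL2L1 from 81.1, 65.7 and 81.4 CPM to 41.1, 35.8 and 29.2 CPM (log2 fold change -1.09, SE 0.134, adjusted p = 2.31e-05). Mitochondrially encoded transcripts held 0 called of 13, the 0 higher becoming 2 without WT-EF replicate 2 or with no filter on low counts, and 3 with a mean of at least 10 counts or with limma on the ComBat-adjusted counts, and their share of counts lay between 0.19% and 0.32% in the 6 libraries.

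**Figure D4:**
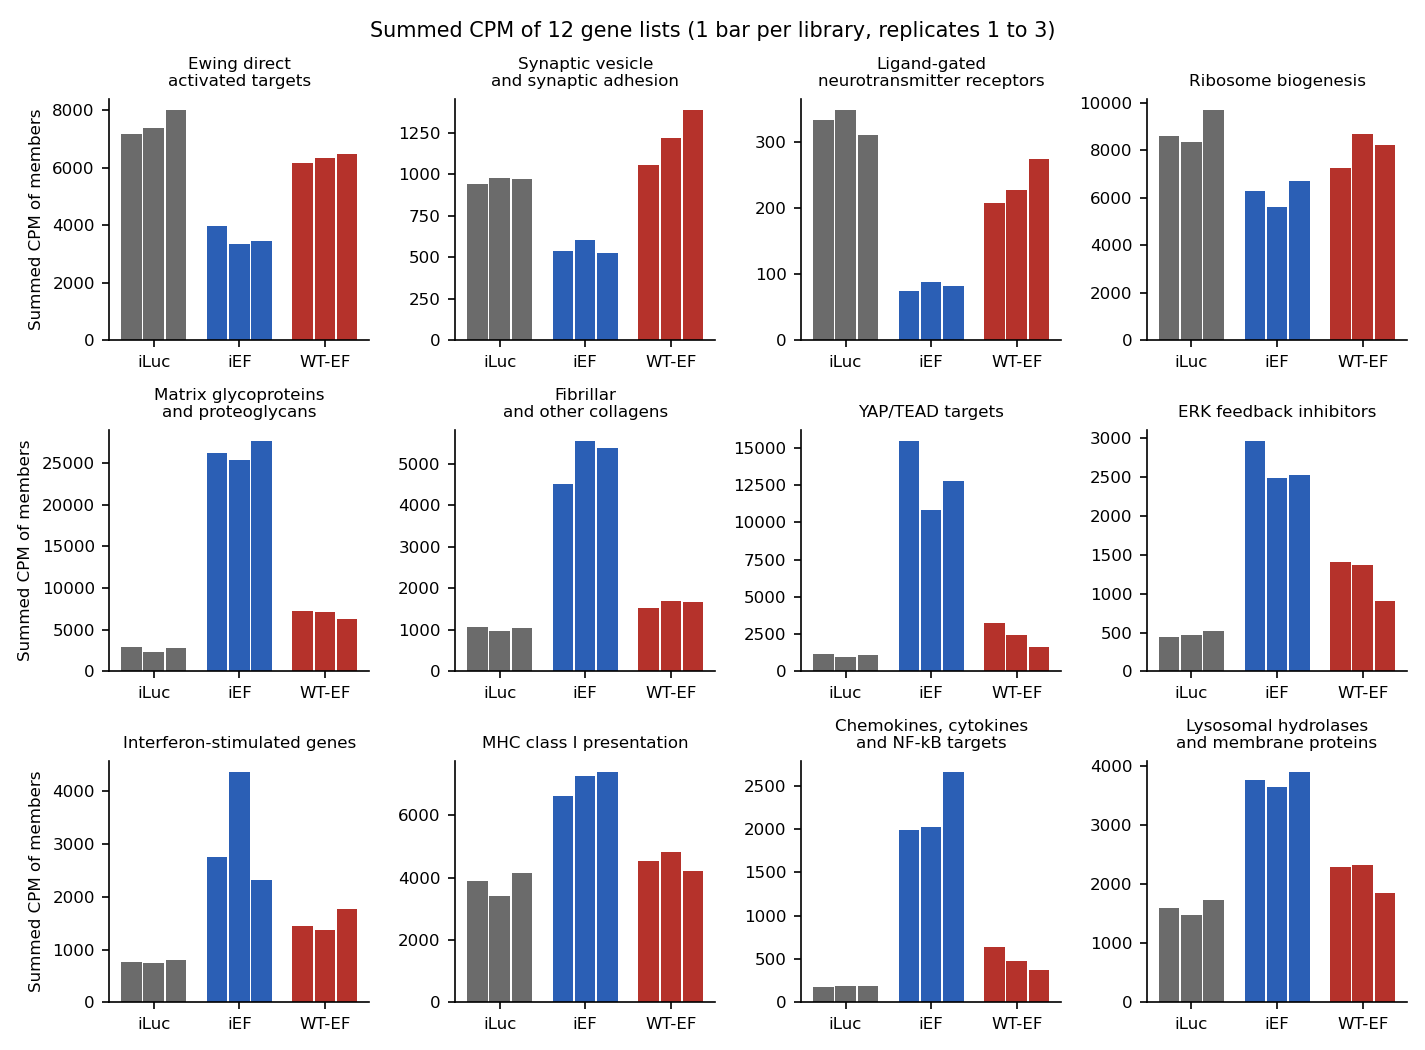
Summed CPM of 12 gene lists (y axis) in each iLuc, iEF and WT-EF library, 1 bar per library in the order of replicates 1 to 3. In the lists that fell the WT-EF bars lie under every iEF bar and above the iLuc bars, and in interferon-stimulated genes iEF replicate 2 stands above the other libraries.

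The position of GGAA repeats was then set beside the calls, as a description with no test. In the 300 bases around each start (RefSeq promoters, GRCh38.p14, 14700 genes matched by symbol), at least 2 consecutive GGAA on either strand were found in 3.44% of all promoters, 3.47% of those of higher genes and 3.47% of those of lower genes. The ETS site ACCGGAAGT, which holds a GGAA core of its own, was found on either strand in 1.69% of all, 1.44% of higher and 1.31% of lower promoters. Past 2-fold it was found in 0.486% of higher (5 of 1028) and 0.247% of lower promoters (4 of 1621). Within 5 kb of the start of 16076 protein-coding genes in GRCh37 the picture differed for long runs. A run of at least 10 copies was found near 0.902% of all genes, 2.46% of higher genes and 0.465% of lower genes, and near 4.48% of genes higher and 0.708% of genes lower by more than 2-fold.

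Read the other way, the share of genes called higher was greatest where the longest run was longest. It was 17.4% of 14915 genes whose longest run was 1 or 2 copies, 17.2% of 574 with 3, 18.5% of 336 with 4 or 5, 27.4% of 106 with 6 to 9 and 48.3% of 145 with 10 or more. The share called lower was 25.4%, 28.4%, 24.4%, 25.5% and 13.1% in the same order. The 145 genes lay near 135 distinct repeats, since some repeats sit between a pair of genes. Of the 70 called higher, 50 had the repeat upstream of the start and 20 downstream, and 31 had it within 2500 bases. Of all 145 genes 96 had the repeat upstream and 49 downstream, and 65 had it within 2500 bases. The 7 genes other than DPF1 whose repeats are shown above were among these 70, and 19 of the 145 genes were called lower.

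**Figure D5:**
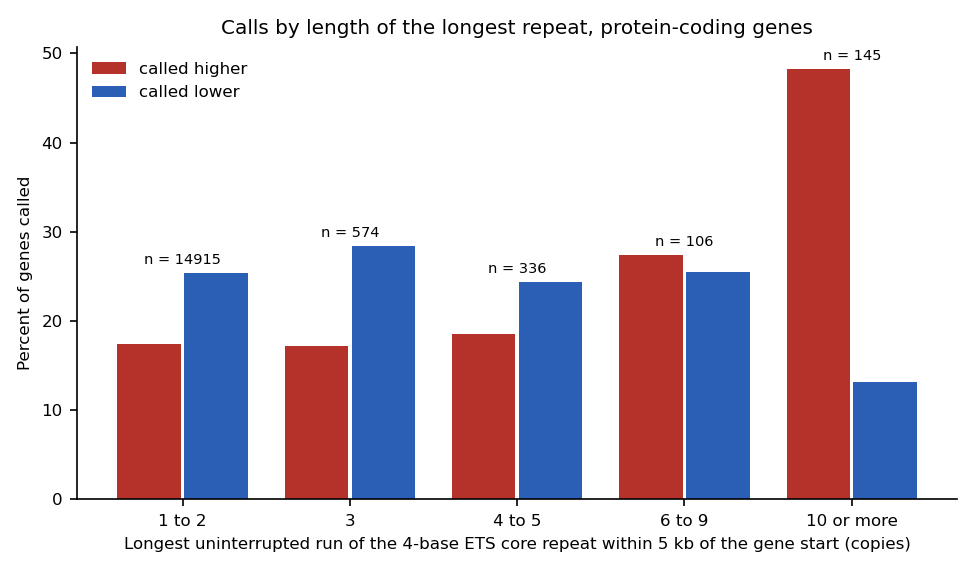
Percent of protein-coding genes called higher (red) or lower (blue) in WT-EF (y axis) by the number of copies in the longest uninterrupted run of the ETS core within 5 kb of the gene start (x axis), with the number of genes above each pair of bars. The red bar reaches 48.3% at 10 or more copies, where the blue bar is at 13.1%.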

How the data were processed

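The libraries were made from total RNA (ScriptSeq) and sequenced as pairs on a HiSeq 4000. The authors aligned reads to hg19 with STAR (version 2.5.1b in the submitters' processing notes) and counted them per gene with htseq-count in intersection-strict mode; the strand setting is not given in the sources used here. They deposited raw counts for 57820 genes, of which 43521 were paired with a symbol, and a ComBat-adjusted table of 27002 genes, whose values are counts adjusted by the authors over sets of replicates. A further 3 columns named no sample here and were not used. Depth was 30347437 to 41859880 counts in iEF and 32943231 to 35976236 in WT-EF.

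Genes averaging at least 1 count over the 15 libraries were fitted with edgeR 4.0.16 (R 4.3.3; quasi-likelihood, TMM) in 1 model of condition plus replicate number, with Benjamini-Hochberg adjustment over all genes and calls at 0.05. The replicate block follows the study's batch adjustment of replicate sets. Deviations from the group means over 17653 genes correlated at 0.301, -0.0963 and -0.117 between same-numbered iEF and WT-EF libraries. Between libraries of different numbers they correlated at -0.259 to 0.306, so the pairing itself was not seen in these values. Replicates differed beyond counting noise. Simulated counts gave 157 of 200 changed genes called and 9 unchanged ones. CPM are TMM-scaled. A floor of 3 counts per library set the "at least" folds, which cover counting error only. Named genes were FLI1, genes the study names, the 10 largest increases and decreases averaging at least 50 counts, the 5 largest CPM gains and losses, and up to 3 called members in each direction plus the most abundant member of each list. Members and lists were chosen with earlier results of these data known. Alternatives used DESeq2 1.42.0 and limma 3.58.1, other filters and scaling, no block, and each library or replicate number left out. The 5 kb repeat window was chosen after promoters were read. Some genes that the naming rule selects are not reported here.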

Additional observations from a re-analysis of the deposited data

How the results depend on the processing

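Under the 16 alternatives run, the count of genes higher in WT-EF than in iEF (3704) moved by more than 1.5 times only when a replicate number was left out of every group, to 2426 without replicate 1 and 2180 without replicate 2. Leaving out libraries gave 2180 to 3619 higher and 3441 to 4409 lower genes, and with a change over 2-fold 1437 to 1795 and 1917 to 2545. The fit without the replicate block gave 3290 higher and 4448 lower, DESeq2's Wald test 3999 and 4524, limma on the ComBat-adjusted values 4452 and 4769, the 6 libraries alone 2849 and 3746, and DESeq2 size factors 4083 and 4556. Of 285 named genes called, 228 were called under all 16 alternatives, 57 lost the call in at least 1 and 0 changed sign. In promoters, at least 4 consecutive GGAA were found for 0.0136% of all genes (2 of 14700), 0% of higher (0 of 2507) and 0.0284% of lower genes (1 of 3515). These are too few to compare. Within 5 kb, a window chosen after seeing the data, the shares were 3.65%, 5.65% and 3.13%. Genes with few counts carry the least precise changes: 3.098% of the 7199 lowest were called higher.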
